A study of Mus musculus with 10 samples.

Results

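The genes described here are 43 genes of synaptic vesicles, of the machinery that fuses vesicles with the cell membrane, and of dense-core granules. They were chosen by name from known roles, with earlier results of these data known, and make up 43 of the 36161 gene names on the array, with 66 of its 55681 probes. Each gene was read from its brightest probe, and 39 of the 43 were among the 22258 genes tested. Cadps2, Pcsk1, Sv2b and Syt2 were not tested because their brightest probe was well above background on fewer than 5 of the 10 arrays.

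The study compared primary mouse neuroblastomas, tumours of the sympathetic nervous system, from 2 genotypes. The 5 ALK/MYCN tumours came from mice carrying 1 transgene for the activated kinase variant ALK F1174L and 1 for MYCN, on a C57BL/6 x 129X1/SvJ background. The 5 MYCN tumours came from mice with the MYCN transgene alone, on a 129X1/SvJ background. MYCN was therefore shared by every tumour, no tumour was treated, and each array held RNA of 1 tumour from a different mouse. Because genotype and strain background differ together, their parts in any difference cannot be told apart. The promoters that drive the transgenes are not given in the sources used here.

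Neurons and chromaffin-type cells store transmitters in vesicles of 2 kinds. Small synaptic vesicles take up classical transmitters, dock at an active zone, and fuse when calcium acts on synaptotagmin and the SNARE proteins zip the membranes together. Large dense-core granules are built at the Golgi around granin proteins, carry peptides and catecholamines, and contain the enzymes that turn prohormones into active peptides. Cells of the sympathetic and adrenal lineage use both routes, and granins in blood or tissue are used as markers of neuroendocrine tumours.

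The values are log2 ratios of the tumour signal (Cy3) over a reference RNA pooled from 11 mouse cell lines (Cy5) on the same array. A difference is the mean of the 5 ALK/MYCN tumours minus the mean of the 5 MYCN tumours, so a positive value means a higher level in ALK/MYCN. A gene was called higher or lower when its adjusted p from limma over all 22258 genes was under 0.05. Since whole tumours were measured, fewer cells of a type and less RNA per cell cannot be told apart in any of these values. The arrays were alike in quality: 53.81 to 58.72% of spots were well above background and no spot was saturated.

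Vesicle and granule genes were more often higher in the ALK/MYCN tumours, and no member passed the test as lower. Of the 39 tested, 20 were higher (51.3%), 0 were lower and 19 passed in neither direction. Among all genes tested, 14.2% were higher and 12.2% lower. In 16 of the 39 (41%) every ALK/MYCN tumour lay above every MYCN tumour, against 11.3% of all genes. The median difference of the 39 was 0.40, against -0.0035 over all genes, and single differences ran between -0.37 for Chgb and 2.30 for Scg2. The 5 members Scg2, Pclo, Cadps, Syn2 and Syt5 differed by more than 1 on the log2 scale. At an unadjusted p under 0.05 in limma, 1 member, Rab3b, was lower.

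**Figure D1:**
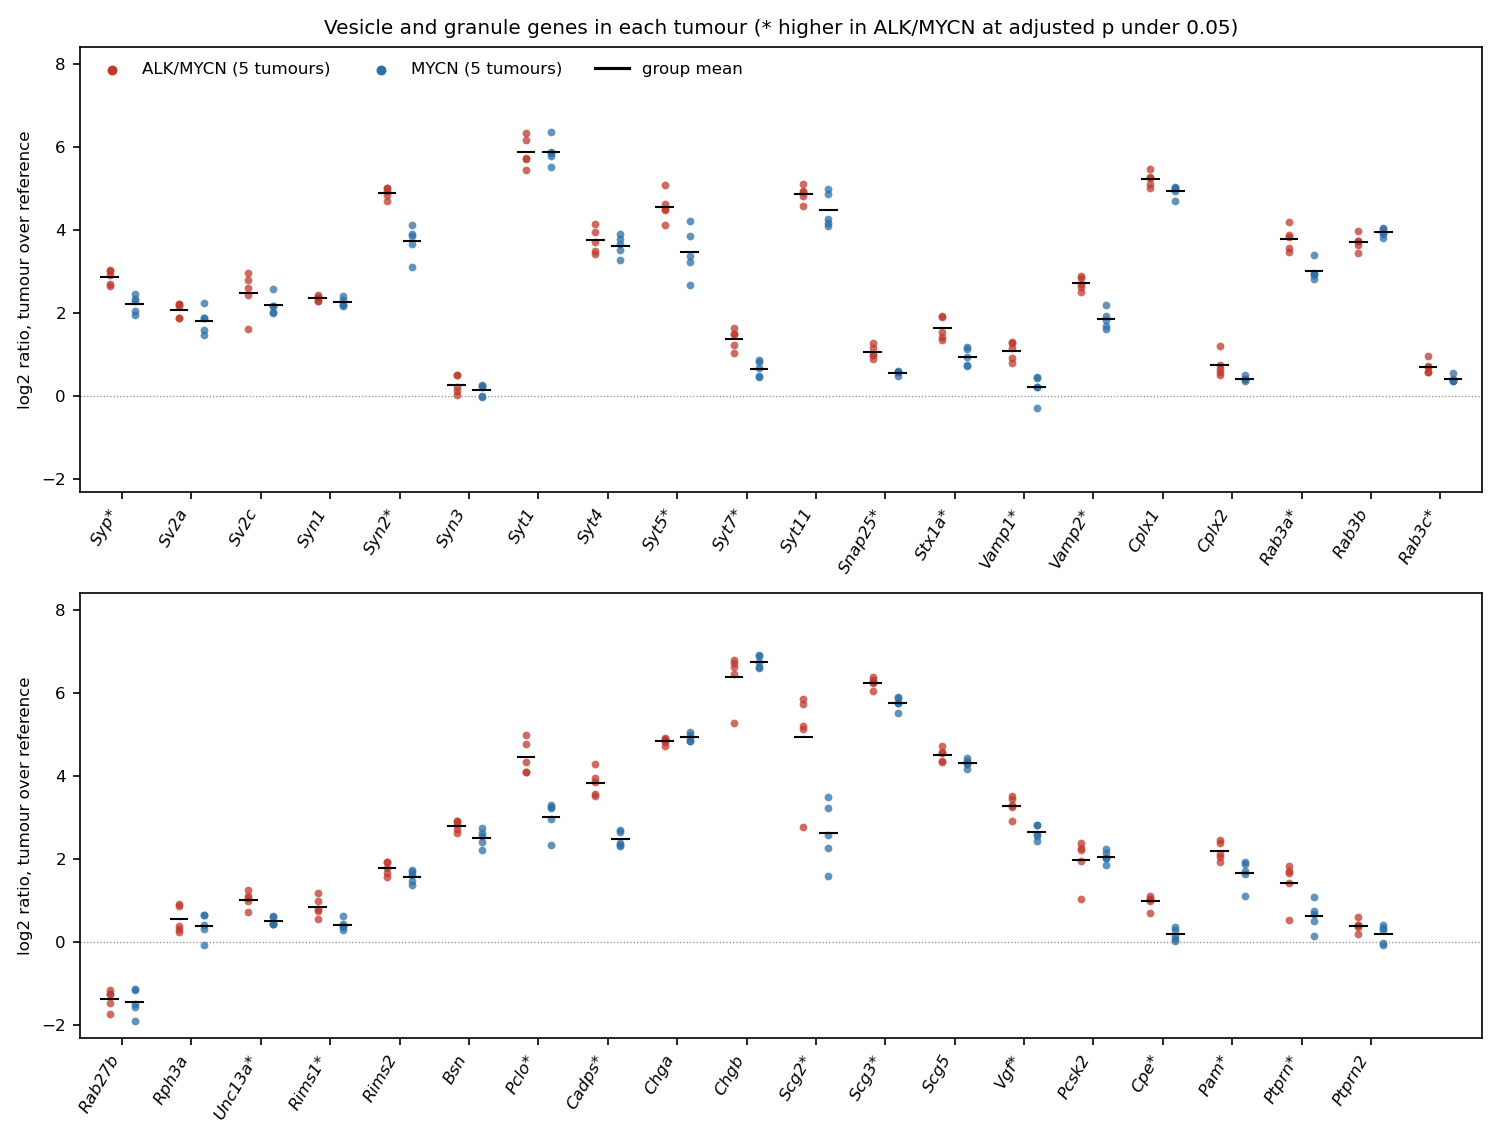
Log2 ratio of tumour over reference (vertical axis) for the 39 tested members (horizontal axis), with 1 red point for each of 5 ALK/MYCN tumours, 1 blue point for each of 5 MYCN tumours and a black bar at each group mean. Starred genes were called higher in ALK/MYCN; Scg2, Pclo and Cadps differed most, while Syt1, Chga and Pcsk2 overlap.

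The calls were spread over every functional class. The SNAREs and complexins had 4 of 6 tested members higher with a median difference of 0.59, and the active zone and priming proteins had 4 of 6 with a median of 0.47. Prohormone processing and granule membrane proteins had 3 of 5 higher (median 0.53), granins 3 of 6 (0.34), and synaptotagmins 2 of 5 (0.40). The membrane proteins and synapsins had 2 of 6 higher (0.28), and the Rab proteins with rabphilin 2 of 5 (0.16). Among all genes tested, 14.2% were higher. These classes hold few genes each, so a single call changes the share of a class much, and differences between them were not tested.

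**Figure D2:**
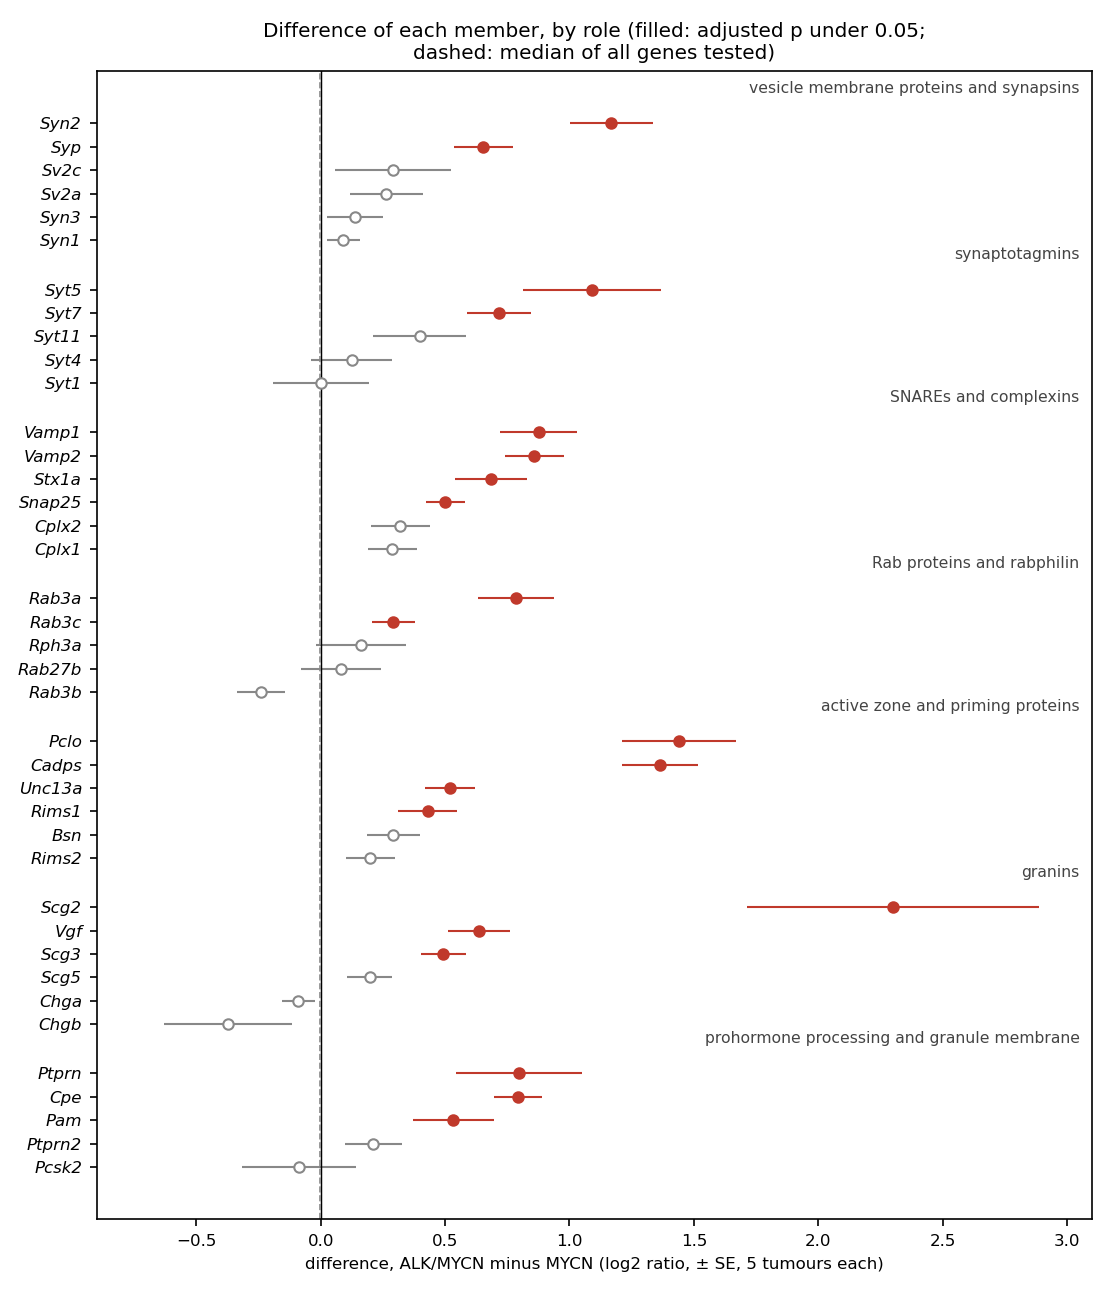
Difference between ALK/MYCN and MYCN tumours in log2 ratio (horizontal axis, point ± SE, 5 tumours each) for each tested member, grouped by role. Filled red points passed at an adjusted p under 0.05; the dashed line is the median of all genes tested, -0.0035, and Scg2 lies farthest from it at 2.30.

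Among the proteins of the vesicle membrane, Syp and Syn2 rose. Syp encodes synaptophysin, an abundant membrane protein of small vesicles that pathologists stain in neuroendocrine tumours. Its log2 ratio was 3.01, 2.92, 2.71, 2.64 and 3.03 in the ALK/MYCN tumours, against 2.04, 2.29, 2.45, 1.94 and 2.33 in the MYCN tumours. The groups did not overlap, and the difference of 0.65 ± 0.12 (SE) is a fold of 1.57 (adjusted p = 0.00414).

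Syn2 encodes synapsin II, which tethers vesicles to the cytoskeleton in the reserve pool. It read 4.94, 5.02, 4.70, 5.00 and 4.83 in ALK/MYCN tumours and 3.85, 3.65, 3.91, 3.11 and 4.13 in MYCN tumours. All 5 ALK/MYCN values lay above all 5 MYCN values, and the difference was 1.17 ± 0.17 (adjusted p = 0.00138). A second probe of Syn2 differed by 1.46 ± 0.21. With the scanner's own processed signals in place of the signals used here, the difference was 0.48 and the call was lost (adjusted p = 0.0590).

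The other synapsins did not pass. Syn1, synapsin I, averaged 2.35 ± 0.07 in the ALK/MYCN group and 2.26 ± 0.10 in the MYCN group (± SD over 5 tumours, as for all means here). It differed by 0.09, with a 95% interval of -0.06 to 0.24, but passed with the tumour channel alone (0.92, adjusted p = 0.00127) and with spike-in centring (0.30, adjusted p = 0.0196). Syn3 differed by 0.14 ± 0.11 and passed with spike-in centring (0.35, adjusted p = 0.0411). The transporter-like vesicle proteins Sv2a and Sv2c differed by 0.26 ± 0.15 and 0.29 ± 0.23 without passing. The brightest Sv2c probe held the lowest of its 10 values in ALK/MYCN 4, at 1.61, and passed without that tumour (0.51, adjusted p = 0.0369). Another Sv2c probe differed by 0.68 ± 0.15 and passed over all probes (adjusted p = 0.00905), so the 3 Sv2c probes did not give the same call.

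Synaptotagmins include the calcium sensors of release, and the members differed widely among themselves. Syt5 read 5.07, 4.47, 4.63, 4.11 and 4.50 in ALK/MYCN tumours and 2.67, 3.21, 3.84, 3.36 and 4.22 in MYCN tumours. Only MYCN 5, at 4.22, reached into the ALK/MYCN range. The difference was 1.09 ± 0.28, a fold of 2.13 (adjusted p = 0.0175).

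Syt7 encodes a slow, high-affinity sensor that also acts in granule release. Its ratios were 1.63, 1.50, 1.03, 1.50 and 1.23 in ALK/MYCN tumours and 0.49, 0.81, 0.68, 0.47 and 0.86 in MYCN tumours. The groups were separate, with a difference of 0.72 ± 0.13 (adjusted p = 0.00385).

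Syt1, the fast sensor of synaptic vesicles, averaged 5.87 ± 0.37 in ALK/MYCN and 5.87 ± 0.30 in MYCN tumours. Its difference was 0.0009, with a 95% interval of -0.43 to 0.43. Syt4 differed by 0.12 ± 0.16. Syt11 differed by 0.40 ± 0.19 (adjusted p = 0.143), and it passed without MYCN 5 (0.53, adjusted p = 0.0491). Among MYCN tumours it read 4.09 to 4.26 in MYCN 1, 2 and 4, and 4.85 to 4.98 in MYCN 3 and 5.

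All 4 SNARE members rose. SNAREs are the proteins that pull the vesicle and the cell membrane together: Vamp1 and Vamp2 sit on the vesicle, and Stx1a and Snap25 on the cell membrane. Vamp2 read 2.85, 2.69, 2.50, 2.63 and 2.88 in ALK/MYCN tumours, against 1.70, 1.92, 1.83, 1.62 and 2.19 in MYCN tumours. Vamp1 read 1.27, 0.92, 1.15, 0.80 and 1.29 in ALK/MYCN tumours, against -0.28, 0.46, 0.22, 0.22 and 0.43 in MYCN tumours. Neither gene overlapped between the groups. The differences were 0.86 ± 0.12 for Vamp2 (adjusted p = 0.00115) and 0.88 ± 0.15 for Vamp1 (adjusted p = 0.00348).

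Stx1a, syntaxin 1A, read 1.41, 1.55, 1.34, 1.90 and 1.93 in ALK/MYCN tumours and 0.94, 1.17, 0.73, 0.74 and 1.12 in MYCN tumours. Again the groups were separate, with a difference of 0.68 ± 0.14 (adjusted p = 0.00799). Snap25 read 0.98, 1.00, 0.90, 1.28 and 1.16 in ALK/MYCN tumours and 0.48, 0.58, 0.60, 0.59 and 0.57 in MYCN tumours. Its difference was 0.50 ± 0.08 (adjusted p = 0.00210), but its only probe is rich in a repeat.

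The complexins, which clamp the partly assembled SNARE complex until calcium arrives, did not pass. Cplx1 averaged 5.22 ± 0.17 in ALK/MYCN and 4.93 ± 0.14 in MYCN tumours, a difference of 0.29 ± 0.10 (adjusted p = 0.0555) that passed without ALK/MYCN 4 (0.34, adjusted p = 0.0350) and in a fit blocked by slide (0.38, adjusted p = 0.0145). For Cplx2 the outcome depended on the probe. Its brightest probe differed by 0.32 ± 0.12 (adjusted p = 0.0731), although every ALK/MYCN value (0.50 to 1.20) lay above every MYCN value (0.36 to 0.49). The file places that probe at chr13:108816800-108816859 (mm9), far from the other Cplx2 probes on that chromosome, such as the one at chr13:54485200-54485259. That other probe read between 1.66 and 2.42 in ALK/MYCN tumours and between 1.17 and 1.82 in MYCN tumours, a difference of 0.73 ± 0.16 that passed over all probes (adjusted p = 0.0102).

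The first 30 bases of these probes show what sets them apart, with the stretch of a simple repeat in capitals.
Cplx2, brightest probe: AGGAGGAGGAGGAGGAGGAGGAGGAGGAGG
Cplx2, probe that passed: tccccactttgtatgatgcaaatgctaaga
Snap25, only probe: CACACACACACACACACACAaagtggattt
Of the 66 probes of the members, 8 (12.1%) shared a word of 15 bases with 20 or more RefSeq promoter windows, against 900 of 55681 probes (1.62%) on the array. The brightest probes of Cplx2, Rab3c, Snap25, Pam and Rab27b are among them. Whether these probes also took up signal from other transcripts was not tested. With all such probes left out, an alternative chosen after the data were seen, 19 of 37 tested members were higher and 0 lower, with 13.8% of all genes higher.

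Rab3 proteins sit on vesicles and granules and guide them to release sites. Rab3a read 4.19, 3.88, 3.47, 3.57 and 3.83 in ALK/MYCN tumours and 2.96, 2.94, 2.92, 2.81 and 3.40 in MYCN tumours. The groups were separate by a narrow margin, set by MYCN 5 at 3.40, and the difference was 0.79 ± 0.15 (adjusted p = 0.00538).

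Rab3c gave different sizes on its probes. The brightest, one of the repeat-sharing probes, averaged 0.71 ± 0.16 in ALK/MYCN and 0.41 ± 0.08 in MYCN tumours, a difference of 0.29 ± 0.09 (adjusted p = 0.0309). The probe at chr13:110844454-110844513 (mm9) shared a word with 3 promoter windows, against 23 for the brightest, and is not one of the repeat-sharing probes. It read 5.31, 4.87, 4.82, 5.09 and 5.37 in ALK/MYCN tumours and 3.78, 3.84, 3.90, 3.39 and 4.02 in MYCN tumours. Its difference was 1.30 ± 0.14 with no overlap (adjusted p over all probes = 0.000518). The call on the brightest probe was lost on leaving out ALK/MYCN 3 or 5 or MYCN 1, 2, 4 or 5 (adjusted p = 0.0565 to 0.0619). A fit blocked by slide also lost it (adjusted p = 0.0788).

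Rab3b did not share this direction. It read 3.64, 3.44, 3.74, 3.96 and 3.74 in ALK/MYCN tumours, against 3.91, 3.81, 4.05, 3.91 and 4.03 in MYCN tumours, a difference of -0.24 ± 0.10 (adjusted p = 0.0918). It passed as lower without ALK/MYCN 4 (-0.30, adjusted p = 0.0332) and after scaling the arrays to a common spread (-0.47, adjusted p = 0.00639). Rab27b and Rph3a, a Rab and a Rab effector of the same docking step, differed by 0.08 ± 0.16 and 0.16 ± 0.18. Rab27b was the only tested member with a mean ratio below 0 in both groups.

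Active zone and priming proteins prepare docked vesicles for fusion. Cadps encodes CAPS1, which primes dense-core granules. It read 3.95, 3.56, 3.53, 4.30 and 3.87 in ALK/MYCN tumours and 2.34, 2.38, 2.65, 2.32 and 2.71 in MYCN tumours. The gap between the lowest ALK/MYCN and the highest MYCN tumour was wide against the spread within groups. The difference was 1.36 ± 0.15, a fold of 2.58, with the smallest adjusted p of all members (0.000525).

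Pclo encodes piccolo, a giant scaffold of the active zone. Its brightest probe read 4.10, 4.11, 4.35, 4.99 and 4.77 in ALK/MYCN tumours and 3.24, 2.96, 3.25, 2.35 and 3.31 in MYCN tumours. The groups did not overlap, and the difference was 1.44 ± 0.23 (adjusted p = 0.00221). All 4 Pclo probes were higher. Their sizes ran between 0.22 ± 0.07 at chr5:14682209-14682268 and 2.31 ± 0.29 at chr5:14863399-14863458 (mm9). The second of these lies on the other side of the brightest probe, which is at chr5:14795934-14795993.

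Unc13a, or Munc13-1, opens syntaxin for SNARE assembly. It read 1.26, 1.10, 0.72, 0.99 and 1.07 in ALK/MYCN tumours and 0.44, 0.44, 0.64, 0.44 and 0.60 in MYCN tumours, without overlap. The difference was 0.52 ± 0.10 (adjusted p = 0.00514). Rims1, a scaffold that binds Rab3, differed by 0.43 ± 0.12 (adjusted p = 0.0236), with ALK/MYCN 5 at 0.56 below MYCN 1 at 0.64. It missed the threshold without ALK/MYCN 1 (adjusted p = 0.0540) or MYCN 4 (adjusted p = 0.0524). The related Rims2 (0.20 ± 0.10) and the scaffold Bsn, bassoon (0.29 ± 0.11, adjusted p = 0.0690), did not pass, although Bsn did without MYCN 5 (0.35, adjusted p = 0.0379).

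Several members could be read at more than 1 probe. Of the 59 member probes kept, 32 were higher and 0 lower when each probe was tested on its own, against 13.7% of all kept probes higher. Of the 11 members with more than 1 kept probe, Cpe, Pclo, Rab3c, Rims1 and Syn2 were higher at every probe. Cplx2 was higher at 2 of 5 probes and Sv2c at 1 of 3. Pcsk2, Ptprn2, Rab27b and Syn3 were higher at none.

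**Figure D3:**
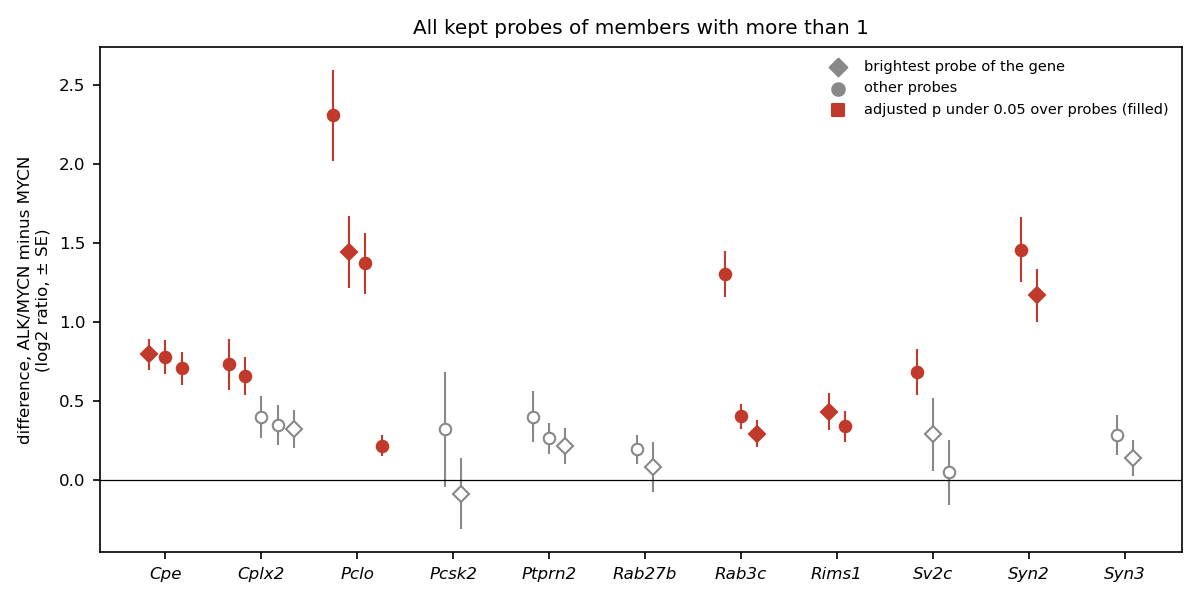
Difference between ALK/MYCN and MYCN tumours in log2 ratio (vertical axis, ± SE, 5 tumours each) for every kept probe of the 11 members with more than 1. Diamonds are the brightest probe of each gene and filled red symbols passed over all probes; Rab3c and Pclo show the widest spread between probes of a gene.

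Granins form the core of dense-core granules, and 3 of the 6 passed the test. Scg2, secretogranin II and the precursor of secretoneurin, showed the largest difference of all members. It read 5.87, 5.21, 5.73, 2.77 and 5.13 in ALK/MYCN tumours and 2.58, 1.59, 3.24, 2.27 and 3.51 in MYCN tumours. The ALK/MYCN values were above all MYCN values except in ALK/MYCN 4, whose 2.77 lay inside the MYCN range. The difference was 2.30 ± 0.59 (95% interval 1.00 to 3.60), a fold of 4.93 (adjusted p = 0.0177).

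Scg3 and Vgf also rose. Scg3, which links granins to the granule membrane, read 6.25, 6.38, 6.06, 6.27 and 6.32 in ALK/MYCN tumours and 5.75, 5.76, 5.89, 5.51 and 5.89 in MYCN tumours. The groups were separate and the difference was 0.49 ± 0.09 (adjusted p = 0.00436), but it was 0.13 (adjusted p = 0.447) after scaling the arrays to a common spread. Vgf, a granin-like precursor induced by growth factors, read 3.45, 3.51, 3.30, 2.91 and 3.27 in ALK/MYCN tumours and 2.45, 2.82, 2.82, 2.62 and 2.56 in MYCN tumours. Its groups were separate too, with a difference of 0.64 ± 0.12 (adjusted p = 0.00535).

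Chga and Chgb, the chromogranins used as clinical markers, did not pass. Chga averaged 4.85 ± 0.07 in ALK/MYCN and 4.94 ± 0.09 in MYCN tumours, a difference of -0.09 with a 95% interval of -0.24 to 0.06. After scaling the arrays to a common spread it passed as lower (-0.39, adjusted p = 0.0386). Chgb read 6.80, 6.72, 6.62, 5.29 and 6.47 in ALK/MYCN tumours and 6.90, 6.61, 6.88, 6.74 and 6.62 in MYCN tumours. ALK/MYCN 4 was again the lowest, and the other 9 tumours lay within 6.47 to 6.90. Scg5, which encodes the chaperone 7B2 of prohormone convertase 2, differed by 0.20 ± 0.09 (adjusted p = 0.132).

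Scg2 and Chgb are shown by the 250 bases before their RefSeq starts (build GRCm38.p6, which differs from the mm9 build of the probes), since both hold the full cAMP response element (in capitals) while their differences were far apart.
Scg2, chr1:79440027-79440276, minus strand: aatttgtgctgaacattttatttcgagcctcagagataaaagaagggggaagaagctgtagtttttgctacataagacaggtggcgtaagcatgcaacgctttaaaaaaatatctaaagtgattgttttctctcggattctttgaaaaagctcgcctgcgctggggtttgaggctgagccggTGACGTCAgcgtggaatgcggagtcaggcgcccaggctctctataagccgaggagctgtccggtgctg
Chgb, chr2:132781392-132781641, plus strand: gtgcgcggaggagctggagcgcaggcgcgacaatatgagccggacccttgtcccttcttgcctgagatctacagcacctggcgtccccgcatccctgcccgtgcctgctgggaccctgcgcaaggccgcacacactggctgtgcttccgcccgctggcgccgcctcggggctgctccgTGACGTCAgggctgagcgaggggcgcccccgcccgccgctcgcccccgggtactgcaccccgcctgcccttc
The element TGACGTCA, which reads the same on both strands, lies at -68 to -61 before the start of Scg2 and at -72 to -65 before that of Chgb. It was also present for Syn1 and Pcsk1. That is 4 of the 33 members with a promoter entry, against 549 of 27025 genes (2.03%). The shorter core TGACG, which the full element contains, was found on either strand for 15 of the 33, against 23% of genes. The core of the RE1 element, which the repressor REST binds, was searched as an exact pattern on either strand. It was found for 0 of the 33, and for only 11 of 27025 genes (0.0407%). With so rare a pattern, 0 among 33 cannot tell whether these genes lack RE1 sites. Inexact matches were not counted. These matches describe the letters in the windows only.

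Enzymes that process prohormones inside granules were higher in part. Cpe encodes carboxypeptidase E, which trims the ends of cut peptides. It read 1.12, 0.72, 1.01, 1.04 and 1.03 in ALK/MYCN tumours and 0.09, 0.15, 0.31, 0.04 and 0.37 in MYCN tumours. The groups were separate at each of its 3 probes, and the brightest differed by 0.79 ± 0.10 (adjusted p = 0.000687).

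Pam, the enzyme that amidates peptide ends, read 1.92, 2.46, 2.14, 2.06 and 2.38 in ALK/MYCN tumours and 1.11, 1.64, 1.88, 1.73 and 1.93 in MYCN tumours. The groups met at the margin, where MYCN 5 at 1.93 stood just above ALK/MYCN 1 at 1.92. The difference was 0.53 ± 0.16 (adjusted p = 0.0375). It missed the threshold without ALK/MYCN 2, 3, 4 or 5 or MYCN 2 or 4 (adjusted p = 0.0528 to 0.0875). The convertase Pcsk2 averaged 1.97 ± 0.55 in ALK/MYCN and 2.06 ± 0.14 in MYCN tumours and did not pass (-0.09 ± 0.23).

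Ptprn, or IA-2, a phosphatase-like protein of the granule membrane, read 1.67, 1.71, 1.42, 0.54 and 1.84 in ALK/MYCN tumours and 0.50, 0.68, 0.76, 0.16 and 1.10 in MYCN tumours. ALK/MYCN 4 lay among the MYCN tumours, and the other 4 lay above all of them. The difference of 0.80 ± 0.25 was near the threshold (adjusted p = 0.0423), and it missed it on leaving out any tumour other than ALK/MYCN 4 or MYCN 5 (adjusted p = 0.0663 to 0.0984). The related Ptprn2 differed by 0.21 ± 0.11 and did not pass, although it did under 3 of 24 alternative settings.

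The untested members were dim. Pcsk1, the other main convertase, was well above background in 2 of 5 ALK/MYCN tumours and in 0 of 5 MYCN tumours. Its log2 ratios were 0.26, 0.04, 0.78, 0.05 and -0.42 in ALK/MYCN tumours and -0.01, 0.20, -0.10, 0.32 and 0.14 in MYCN tumours, and the groups overlapped. Syt2 was well above background in 1 ALK/MYCN and 0 MYCN tumours. Sv2b and Cadps2 were each above background in 2 ALK/MYCN tumours and 1 MYCN tumour.

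The members were also averaged within each tumour. The 28 genes of synaptic vesicles and release machinery were averaged after centring each gene on its mean over tumours. These averages were 0.32, 0.23, 0.10, 0.26 and 0.32 in the ALK/MYCN tumours and -0.31, -0.26, -0.18, -0.40 and -0.08 in the MYCN tumours. The 11 genes of granule cargo and processing averaged 0.44, 0.37, 0.30, -0.27 and 0.38 in the ALK/MYCN tumours and -0.34, -0.36, -0.08, -0.33 and -0.12 in the MYCN tumours. ALK/MYCN 4 thus had a release-machinery average like the other ALK/MYCN tumours and a granule average within the MYCN range. Within its group it was lowest for 5 of the 11 granule genes and highest for 0. Of the 11, Chgb (-1.28), Scg2 (-1.02), Pcsk2 (-0.98) and Ptprn (-0.50) carried its low average. The other 7 averaged 0.12 in ALK/MYCN 4, against 0.15 to 0.27 in the other ALK/MYCN tumours. The 4 were picked as its lowest from these same values, so a higher average of the other 7 was fixed in advance. Without ALK/MYCN 4, Scg2 differed by 2.84, and 21 of the 39 members were higher and 1 (Rab3b) lower, with 12.4% of all genes higher. As these are averages over named genes, they carry no test.

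**Figure D4:**
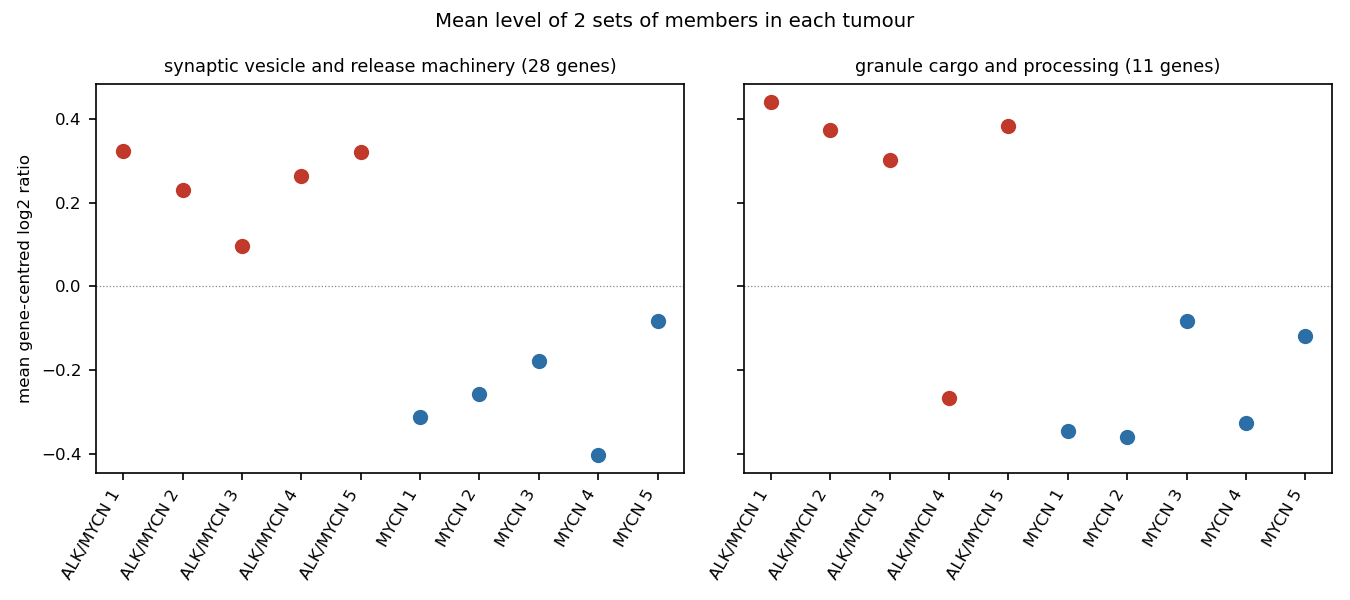
Mean gene-centred log2 ratio (vertical axis) of 28 synaptic vesicle and release genes (left) and 11 granule cargo and processing genes (right) in each of 5 ALK/MYCN (red) and 5 MYCN (blue) tumours. ALK/MYCN 4 is at 0.26 on the left and at -0.27 on the right.

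Related genes outside the set were counted in the same fit, in which 14.2% of all genes were higher and 12.2% lower. Of 17 tested other SNAREs and regulators, 11 were higher and 1 lower, with a median difference of 0.34. Snph, syntaphilin, read 2.80, 2.76, 2.13, 2.31 and 2.63 in ALK/MYCN and 0.78, 0.90, 1.00, 0.71 and 1.07 in MYCN tumours (1.63 ± 0.14, adjusted p = 0.000187). Napg and Napb, which encode SNAP proteins that help take spent SNARE complexes apart, differed by 0.66 ± 0.07 and 1.00 ± 0.13. The gene of this related list that fell was Cplx3, at -0.73 ± 0.20 (adjusted p = 0.0249), named after its value was seen.

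Other vesicle membrane proteins and transporters split, with 7 of 14 higher and 4 lower. Slc18a2 encodes VMAT2, which loads catecholamines into vesicles. It read 5.44, 5.13, 4.83, 5.07 and 5.17 in ALK/MYCN tumours and 3.30, 3.51, 3.80, 3.59 and 3.92 in MYCN tumours. The groups were separate, with a difference of 1.50 ± 0.14 (adjusted p = 0.000267). Syngr3, Synpr and Scamp1, further vesicle and carrier membrane proteins, rose by 1.08, 1.07 and 0.73. The 4 that fell, Syngr1, Syngr2, Sypl and Slc17a9, were between -0.72 and -0.62. These 4 were named after their values were seen.

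Of 16 other active zone and priming proteins, 10 were higher and 2 lower. The higher ones included Erc2 (1.19 ± 0.23), Ppfia4 (0.97 ± 0.18), Erc1 (0.56 ± 0.11) and Rab3gap1 (0.34 ± 0.07). The 2 lower genes, named after their values were seen, were Rab3ip (-0.47 ± 0.10) and Baiap3 (-0.52 ± 0.17). Of 13 other synaptotagmin and C2 domain genes, 3 were higher, Doc2b (1.88 ± 0.29), Syt16 (1.43 ± 0.20) and Syt17 (0.84 ± 0.18), and Syt9 was lower (-0.54 ± 0.16). Of 16 genes of vesicle endocytosis, which recovers membrane after release, 6 were higher and 0 lower. Amphiphysin (Amph) read 2.46, 2.57, 2.30, 2.92 and 2.95 in ALK/MYCN and 0.86, -0.75, 1.04, 0.59 and 1.00 in MYCN tumours (2.09 ± 0.32, adjusted p = 0.00187). Synj1, Snap91 and Epn1 differed by 0.77, 0.79 and 0.28.

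Of 21 other granule and processing genes, 8 were higher and 0 lower. The neuropeptide gene Gal, galanin, read 3.24, 3.96, 2.75, 1.49 and 4.05 in ALK/MYCN and 0.42, 0.46, 0.96, 0.48 and 0.56 in MYCN tumours. All ALK/MYCN tumours were above all MYCN tumours, with ALK/MYCN 4 the lowest of its group, and the difference was 2.52 ± 0.43 (adjusted p = 0.00298). Adcyap1, the precursor of the peptide PACAP, differed by 1.95 ± 0.36, Resp18 by 0.70 ± 0.14, and C630004H02Rik, an older name of Hid1, by 0.74 ± 0.12.

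REST represses many neuronal genes through the RE1 element. Of 9 genes of REST and its corepressors, 0 were higher and 3 lower: Rcor2 (-0.61 ± 0.12), Sin3a (-0.32 ± 0.07) and Hdac1 (-0.29 ± 0.09). Rest itself differed by -0.73 ± 0.34 and did not pass (adjusted p = 0.141).

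**Figure D5:**
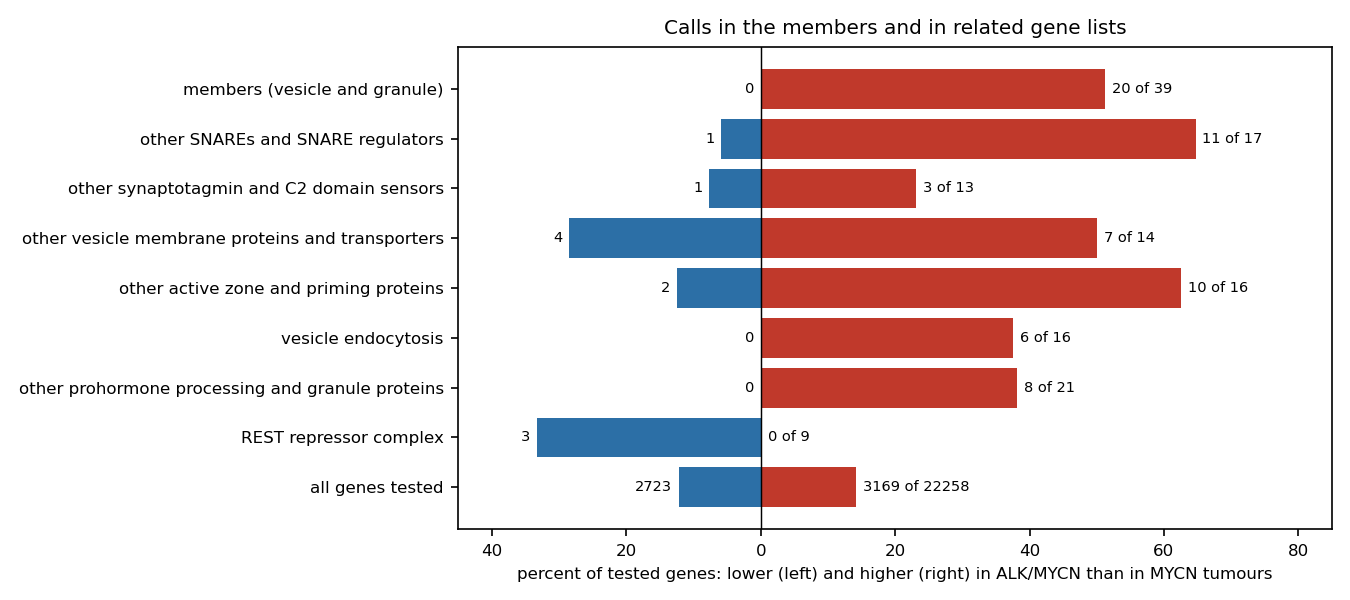
Percent of tested genes (horizontal axis) that were higher (red, right) or lower (blue, left) in ALK/MYCN than in MYCN tumours, for the vesicle and granule members, 7 related gene lists and all genes tested, with counts at the bars. The members had 20 of 39 higher and 0 lower, against 3169 higher and 2723 lower of 22258 genes.

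Markers of other cells also differed between the groups. Neuroblast markers were present in every tumour and 5 of 10 were higher, with gene-centred list averages of 0.01 to 0.34 for ALK/MYCN and -0.32 to -0.02 for MYCN. Endothelial markers were lower for 6 of 8, with averages of -0.84 to 0.10 for ALK/MYCN and 0.08 to 1.03 for MYCN. Macrophage markers were lower for 5 of 8, at -0.71 to -0.12 for ALK/MYCN and -0.41 to 0.99 for MYCN. Erythroid markers were lower for 5 of 5, at -0.97 to -0.45 for ALK/MYCN and -0.14 to 1.21 for MYCN. Schwann cell markers were higher for 3 of 6, at -0.06 to 0.79 for ALK/MYCN and -0.66 to 0.10 for MYCN. Fibroblast markers passed for 0 of 8 in limma, at -1.59 to 0.11 for ALK/MYCN and -1.73 to 2.28 for MYCN. With the average of fibroblast, endothelial and macrophage markers as a covariate, 14 of 39 members were higher and 0 lower, with a median of 0.36 and 9.61% of all genes higher. In that fit 7 members no longer passed, with differences of 2.08 for Scg2 (adjusted p = 0.101), 1.18 for Syt5, 0.61 for Stx1a, 0.57 for Rab3a, 0.34 for Rab3c, 0.26 for Rims1 and 0.66 for Ptprn. Those of Syt5 and Rab3c were larger than without the covariate. Ptprn2 gained a call in the same fit (0.42, adjusted p = 0.0394). The part of Schwann and blood cells in the differences was not tested.

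Single tumours held markers of neighbouring tissue: adrenal cortex in ALK/MYCN 3 (4.12), skeletal muscle in MYCN 1 and 2 (2.18 and 4.91), kidney tubule in MYCN 5 (3.45) and adipocytes in ALK/MYCN 3 and MYCN 4 (2.56 and 4.17). Without ALK/MYCN 3, MYCN 2 and MYCN 5, 16 of the 39 were higher and 0 lower, against 9.66% of all genes higher. MYCN 1 and MYCN 4 stayed in this fit, so it was not free of tumours with such markers. In that smaller fit Scg2 (2.04), Rab3c (0.26), Rims1 (0.43), Pam (0.63) and Ptprn (0.97) no longer passed. The differences of Pam and Ptprn were larger than with all tumours. Sv2a gained a call there (0.48, adjusted p = 0.04998).

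The arrays lay on 3 slides, with 1 ALK/MYCN and 1 MYCN tumour on the first, 3 and 1 on the second, and 1 and 3 on the third. The median difference over the members was 0.61, 0.46 and 0.46 on these slides, with no test where a genotype has 1 tumour. The 20 called members were positive on each, but they were called on these same arrays. The balance of calls depended on the centring. Median centring gave 24 members higher and 0 lower (4455 genes higher and 1349 lower), and centring on spike-in controls gave 30 and 0 (7039 and 928). With spike-in centring the median over all genes was 0.21 and that of the members 0.61. Scaling to a common spread gave 17 and 2 (2869 and 2491).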

How the data were processed

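RNA of 10 mouse tumours was labelled with Cy3 and hybridised with a Cy5 reference on Agilent arrays, per the labels' protocols. Per the file headers, the deposited spot intensities come from Feature Extraction 10.7.3.1 and positions are on mm9. The deposited value table holds log2 ratios that match the scanner-processed Cy3 over Cy5 within 0.000501, with column medians of -0.186 to -0.035; it served as an alternative. The scanner's deposited log10 ratio was not used. Mean signals were corrected by normexp (offset 50) and loess within arrays in limma 3.58.1 (R 4.3.3), with no scaling between arrays; outlier spots (177 to 345 per array) were left out. A probe was kept (30851 were) when 5 or more of the 10 arrays had it well above background in Cy3. Each gene took its brightest probe, and differences were tested with lmFit and eBayes (two-sided, Benjamini-Hochberg over all genes, 0.05). Precision is limited by the number of arrays. All 43 members were matched to RefSeq names (40 by accession, 3 by symbol). Members, lists and tests were chosen with earlier results of these data known. In each related list up to 4 called genes of smallest p were to be named.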

Additional observations from a re-analysis of the deposited data

Results flagged for a closer look

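In 7 of 78 pairs of a member and a group (8.97%), 1 tumour stood apart from the other 4. For independent, normally distributed values chance gives about 1 in 20. These pairs share the same tumours, so the share cannot show an excess over chance. In ALK/MYCN 4, Scg2 was low at 2.77 (next lowest 5.13) and Chgb at 5.29 (next lowest 6.47). Cpe was low in ALK/MYCN 2 at 0.72, against 1.01 in the next tumour. Among MYCN tumours, Rab3a was high in MYCN 5 at 3.40 and Rab3c in MYCN 3 at 0.56. Cplx1 was low in MYCN 4 at 4.69, and Snap25 in MYCN 1 at 0.48.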

How the results depend on the processing

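No called difference of a member changed sign under the 24 alternatives. Members higher, with the share of all genes higher in the same fit, were 14 (12.5%) with scanner-processed signals, 18 (7.9%) with no filter on dim probes, 22 (13.8%) with the mean over probes and 26 (14.1%) with Cy3 alone. The median difference was 0.65 with Cy3 alone, 0.61 with spike-in centring and 0.26 after scaling between arrays; 2 members were lower with scaling (Rab3b and Chga). Leaving out single tumours gave 16 to 21 members higher (fewest without MYCN 4), 0 to 1 lower and medians of 0.32 to 0.46, with 10.6 to 13.2% of all genes higher. Ptprn, Pam, Rab3c and Rims1 lost their call on leaving out at least 1 tumour. Among called members, differences moved by over 1.5 times for Unc13a (0.98, adjusted p = 0.106) and Rims1 (0.86, adjusted p = 0.131) with scanner-processed signals, Rims1 with the marker covariate (0.26), Rab3c with spike-in centring (0.50) and the mean over probes (0.67), and Syn2 (2.56), Syt5 (1.65), Scg3 (0.75), Vgf (2.15) and Pam (1.03) with Cy3 alone. Uncalled members that passed with Cy3 alone were Syn1 (0.92), Cplx1 (0.97), Scg5 (0.68), Sv2c (0.78), Bsn (0.65) and Rims2 (0.42). Of the results under alternatives, 851 kept their side of the threshold, 47 lost and 34 gained a call; the cause was not tested. The replicate block gave 20 members higher (11.3% of all genes): Rab3c lost (adjusted p = 0.0535) and Cplx1 gained (adjusted p = 0.0334) its call. Same-numbered tumours correlated at -0.09 to 0.34, highest for ALK/MYCN 1 and MYCN 1. The differently numbered ALK/MYCN 3 and MYCN 4 reached 0.52. These values cannot decide whether the numbers pair tumours, since tissue shared by 2 tumours could also enter them.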
